A study of Mus musculus with 5 samples.

Results

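The 10 genes described here code for receptors by which natural killer (NK) cells and some T cells sense their targets: Ncr1, Klrk1, Klrb1c, Klra4, Klra8, Klrc2, Klra7, Klrc1, Klrd1 and Klre1. They were taken by name, and all 10 are present among the 18087 genes of the 5555 matrix and the 19427 genes of the CT26 matrix. Single live CD45+ cells of mouse tumours were read with 10x Genomics 3′ RNA libraries, and there was 1 library per group. CT26 carcinoma grew under the skin of BALB/c mice and was taken on day 12; no treatment is given for it, and its library name marks it as vehicle. The 5555 melanoma line grew under the skin of C57BL/6 mice and was taken on day 4, and a small spike-in of cells whose nature is not stated was added to each 5555 sample. A Ptgs-/- form of 5555, which lacks the cyclooxygenase genes of prostaglandin synthesis, was taken from mice depleted of NK cells with anti-NK1.1 (clone PK136) and anti-Asialo GM-1, and from mice without depletion. The Ptgs+/+ form of 5555 was taken from mice without depletion. The mutation was in the tumour cells, and whether animals were pooled for a library is not given in the sources used here. A single library stands for each condition and allows no test, so differences are described by their size, with intervals that cover counting error only. For the same reason tumour, mouse strain, day and library cannot be told apart between CT26 and 5555.

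An NK cell weighs signals of activating and inhibitory receptors against each other before it kills or secretes cytokines. Many of these receptors are C-type lectin-like proteins coded side by side in the NK gene complex, and mouse strains differ in which Ly49 (Klra) genes they carry. Inhibitory members recognise MHC class I on healthy cells and carry an ITIM, a short tyrosine motif in the cytoplasmic tail that recruits phosphatases. Activating members lack it and signal through the adaptors DAP12 (Tyrobp), DAP10 (Hcst), FcRγ (Fcer1g) or CD3ζ (Cd247).

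The coding starts of the paired Ly49 and NKG2 receptors are shown because they carry the difference between the inhibitory and the activating forms. They are the first 60 coding bases in the GENCODE vM21 annotation of GRCm38 (mm10), read 5′ to 3′ on the coding strand. Capitals mark codon 8, which codes for the tyrosine of the ITIM in Klra7 and Klrc1 and for phenylalanine in Klra4 and Klra8. Klrc2 has no tyrosine in that stretch and is shown without capitals.
Klra4: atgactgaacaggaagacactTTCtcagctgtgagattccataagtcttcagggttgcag
Klra8: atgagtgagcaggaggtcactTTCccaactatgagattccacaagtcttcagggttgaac
Klra7: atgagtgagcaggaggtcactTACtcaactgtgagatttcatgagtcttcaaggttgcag
Klrc2: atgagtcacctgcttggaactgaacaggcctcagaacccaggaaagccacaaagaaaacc
Klrc1: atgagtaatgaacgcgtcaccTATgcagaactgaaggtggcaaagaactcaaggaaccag
A run of the ITIM type (isoleucine, valine, leucine or serine, any residue, tyrosine, any 2 residues, then leucine, valine or isoleucine) was searched in the first 50 codons of each gene. Of the 10 receptors only Klra7 and Klrc1 held it there, against 6.2% of 21540 coding genes. Later codons were not searched, so a cytoplasmic tail coded further along a gene would be missed. A match to these letters is a description and not evidence of a working motif.

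Over the whole aligned coding sequence, Klra4 and Klra7 had the same base at 85.5% of aligned coding positions, Klra4 and Klra8 at 81%, Klra8 and Klra7 at 80.4%, and Klrc2 and Klrc1 at 88.5%. The other pairs aligned were less alike, with Klrk1 and Klrd1 the same at 67.4% and Klre1 and Klrd1 at 62.7%. Since 3′ libraries read the transcript's end, the last 400 bases were compared with all other genes in words of 50 bases. Klrc1 shared 63.5% of these words, mostly with sequence of Klrc2, Klra7 shared 35.3%, mostly with the pseudogene Klra13-ps, and Klra8 shared 15.7%, mostly with Klra9. The other 7 receptors, Klrc2 included, shared none in their own last bases. How the counting treated reads that match several genes is not given in the sources used here, so the counts of Klrc1, Klra7 and Klra8 are uncertain to that extent. Klrb1c overlaps Gm44511 on the same strand, and its count is uncertain for that reason.

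The genes lie in the mm10 build as follows. Ncr1 is on the plus strand at chr7:4337724-4345164. The other 9 are on chromosome 6 in the NK gene complex. Klrb1c is at chr6:128778485-128789215 on the minus strand. Klre1 (chr6:129577905-129585827) and Klrd1 (chr6:129591782-129598775) are on the plus strand. Klrk1 (chr6:129610323-129623864), Klrc2 (chr6:129647496-129660689) and Klrc1 (chr6:129666015-129678973) follow on the minus strand, as do Klra4 (chr6:130043731-130067271), Klra8 (chr6:130115226-130129898) and Klra7 (chr6:130218605-130233322). The mm10 reference is a C57BL/6 genome. BALB/c mice are known to lack the Ly49H and Ly49D genes, and PK136 is known not to stain their NK cells.

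The libraries held 8987 cells for CT26, 3879 for NK-depleted Ptgs-/-, 4677 for Ptgs-/- and 3262 for Ptgs+/+ tumours, with 39748447, 23193580, 24254665 and 13341083 UMIs (counted molecules) in that order. The authors' class of NK cells held 1346 cells in CT26 (14.98% of the library), 45 in NK-depleted Ptgs-/- (1.16%), 510 in Ptgs-/- (10.9%) and 137 in Ptgs+/+ tumours (4.20%). Its median depth was 2240.5, 2517, 2096 and 1835 UMIs per cell in the same order. Levels are means over cells of CPM, a cell's UMIs of a gene scaled to a fixed total per cell, a share of cells means cells with at least 1 UMI, and 3′ counts are compared between samples and classes, not between genes.

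The NK label was checked on 10 other marker genes. In CT26, Ptgs-/- and Ptgs+/+ tumours all 10 markers, among them Eomes, Prf1 and Gzma, were seen in at least 10% of the cells of the NK class, and their summed level was 29200, 19200 and 18800 CPM. The 45 cells of the NK-depleted library went against the label. They had no UMI of Eomes, Prf1, Gzma or Xcl1, and the summed marker level was 488 CPM. Their T cell markers summed to 3210 CPM, against 858 CPM in the NK class of undepleted Ptgs-/- tumours, and Cd3e was seen in 53.3% of them, Cd4 in 51.1% and Gata3 in 53.3%. They are called the 45 cells labelled NK below. Neutrophil markers in the NK class summed to 33.9 CPM in CT26, 433 CPM in NK-depleted Ptgs-/-, 96.6 CPM in Ptgs-/- and 1060 CPM in Ptgs+/+ tumours, where S100a8 was seen in 8.76% of the cells. Without cells that had a UMI of Cd3e, Cd79a, C1qa or S100a8, 471 Ptgs-/- and 122 Ptgs+/+ NK cells were left, and the median log2 fold of the 10 receptors between them was 0.19, against 0.26 with all cells.

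By mean level all 10 receptor genes were highest in the NK class. This held in each of the CT26, Ptgs-/- and Ptgs+/+ libraries, 30 of 30 pairs of gene and library, and also by summed UMIs, by the thinned share of cells and without cells that had UMIs of other lineages. Whether the authors' labels rest on these genes was not tested, so this order may in part follow from the labels. By the share of cells at full depth 3 of the 30 pairs did not hold. Klrd1 was seen in 77.3% of cDC2s and 75.2% of NK cells in Ptgs+/+ tumours, and in CT26 the class deposited as Proliferating cells exceeded NK cells for Klrc1 (41.5% and 29.7%) and Klrc2 (39% and 28.9%). Monocytes and macrophages, which should lack most of these genes, give the background. Ncr1 was seen in 3.2% of them in CT26, 0.534% in Ptgs-/- and 0.0847% in Ptgs+/+ tumours, against 80.8%, 48.6% and 48.9% of the NK class, although the macrophages were read more deeply (medians of 4359, 4958.5 and 3700.5 UMIs). Klrk1 was the clearest exception among the 10 genes in CT26 and Ptgs-/- tumours, with a UMI in 28.6% and 7.47% of monocytes and macrophages. In Ptgs+/+ tumours Klrd1 (4.49%) and Klrk1 (4.19%) stood side by side. The 44 B cells of Ptgs-/- tumours had UMIs of Klre1 alone among the 10 genes, in 2.27% of cells. The 36 B cells of the NK-depleted library had no UMI of any, which allows a share of up to 8.33%.

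**Figure D1:**
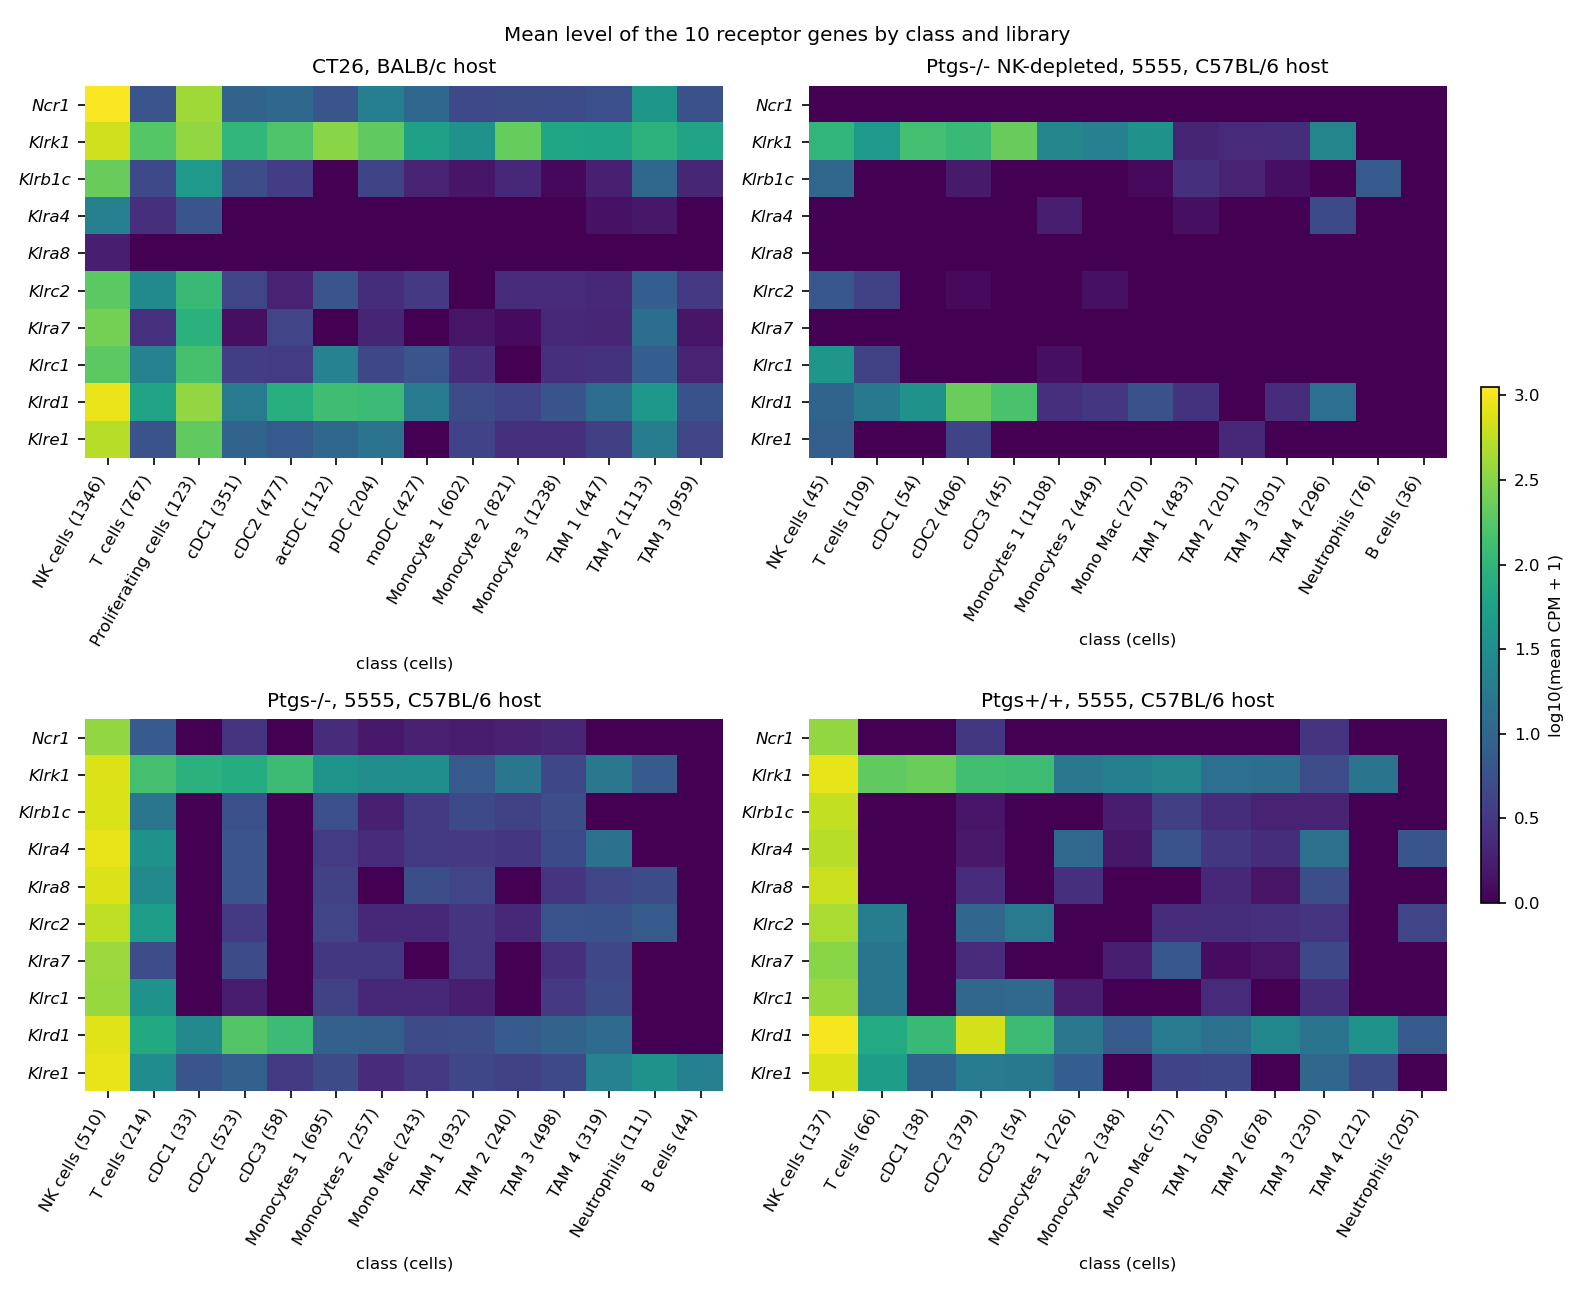
Mean level of each receptor gene (rows) in each class with at least 30 cells (columns, number of cells in brackets) as log10(mean CPM + 1), 1 panel per library. The NK class is brightest in CT26, Ptgs-/- and Ptgs+/+ tumours, Klra4 and Klra8 are dark in CT26, and Klrd1 and Klrk1 also stand out in dendritic cell classes.

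Among activating receptors, Ncr1 codes for NKp46, which marks NK cells and other innate lymphoid cells. It averaged 1070 CPM in CT26, 0 CPM in the 45 cells labelled NK of the depleted library, 360 CPM in Ptgs-/- and 357 CPM in Ptgs+/+ tumours. The CT26 level stood above both 5555 libraries, which lay side by side.

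Klrk1 codes for NKG2D, the receptor of stress ligands such as H60 and Rae-1. Its mean was 667 CPM in CT26, 774 CPM in Ptgs-/- and 873 CPM in Ptgs+/+ tumours, and the 45 depleted cells held 15 UMIs. It had a UMI in 72.8% of cells in CT26, 15.6% in the 45 depleted cells, 76.1% in Ptgs-/- and 75.2% in Ptgs+/+ tumours. The 3 undepleted libraries were close to each other.

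Klrb1c codes for NK1.1, the antigen of the depleting antibody PK136. It averaged 217 CPM in CT26, 9.14 CPM (2 UMIs) in the 45 depleted cells, 753 CPM in Ptgs-/- and 586 CPM in Ptgs+/+ tumours. RNA counted as Klrb1c was present in 35% of the BALB/c cells, although PK136 does not stain NK cells of that strain.

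Klra8 codes for Ly49H, known for its recognition of a mouse cytomegalovirus protein. It had 3 UMIs in 1346 cells in CT26 (0.828 CPM) and none in the 45 depleted cells, against 776 CPM in Ptgs-/- and 639 CPM in Ptgs+/+ tumours. Klra4 codes for Ly49D, an activating receptor of MHC class I. It averaged 20.3 CPM (62 UMIs in 3.34% of cells) in CT26 and 0 CPM in the 45 depleted cells, against 891 CPM in Ptgs-/- and 531 CPM in Ptgs+/+ tumours. Both genes were high in the undepleted C57BL/6 libraries. In the BALB/c library Klra8 was near the floor. Klra4 was low there but above the background, with a UMI in 0.0965% of CT26 monocytes and macrophages. Which gene gave the UMIs counted as Klra4 in CT26 was not tested.

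Klrc2 codes for NKG2C, the activating partner of CD94. It averaged 188 CPM in CT26, 5.7 CPM (1 UMI) in the 45 depleted cells, 567 CPM in Ptgs-/- and 453 CPM in Ptgs+/+ tumours. The 5555 libraries without depletion were higher than CT26.

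Of the inhibitory receptors, Klra7 codes for Ly49G2, which binds MHC class I. It averaged 260 CPM in CT26, 0 CPM in the 45 depleted cells, 391 CPM in Ptgs-/- and 320 CPM in Ptgs+/+ tumours. Klrc1 codes for NKG2A, the inhibitory partner of CD94 and a receptor of Qa-1. Its mean was 189 CPM in CT26, 40.4 CPM (7 UMIs) in the 45 depleted cells, and 374 CPM in both Ptgs-/- and Ptgs+/+ tumours. Klra7 was thus similar in the 3 undepleted libraries, and Klrc1 was lower in CT26.

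The remaining genes code for partner chains. Klrd1 codes for CD94, which pairs with NKG2A or NKG2C. It averaged 904 CPM in CT26, 8.72 CPM (2 UMIs) in the 45 depleted cells, 787 CPM in Ptgs-/- and 1010 CPM in Ptgs+/+ tumours. Klre1 pairs with the products of Klri1 or Klri2. It averaged 522 CPM in CT26, 7.49 CPM (2 UMIs) in the 45 depleted cells, 887 CPM in Ptgs-/- and 752 CPM in Ptgs+/+ tumours. Both were high in each undepleted library and nearly missing in the depleted cells.

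**Figure D2:**
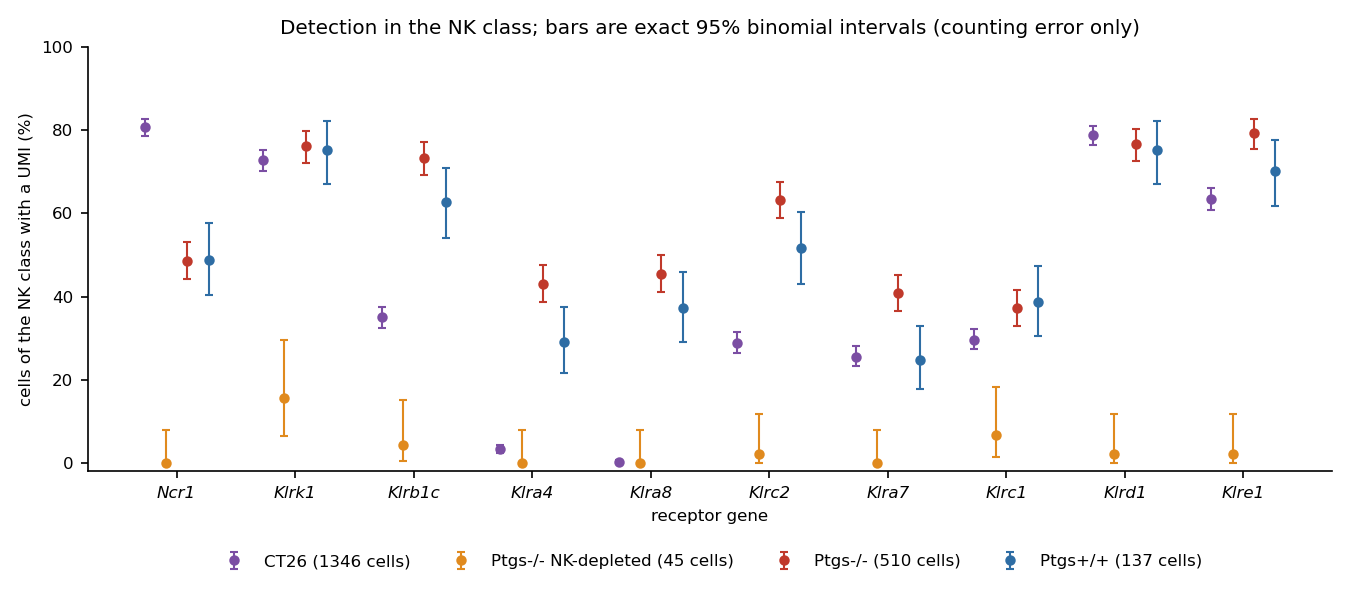
Share of cells of the NK class with at least 1 UMI of each receptor gene, in % (points) with exact 95% binomial intervals (bars), for CT26, NK-depleted Ptgs-/-, Ptgs-/- and Ptgs+/+ tumours. Klra8 was seen in 0.223% of NK cells in CT26, 45.5% in Ptgs-/- and 37.2% in Ptgs+/+ tumours, and Ncr1 in 80.8%, 48.6% and 48.9%.

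The comparison of Ptgs-/- with Ptgs+/+ tumours asked whether NK cells that meet tumour cells without the cyclooxygenase genes carry other receptor RNA. In the NK class 1 of 10 receptors, Klra4, was higher by 1.5-fold or more, none was lower, and 9 lay within 1.5-fold. Among the 3805 genes seen in at least 10% of these cells 9.93% were higher and 7.99% lower, so the receptors' count is near the background. The median log2 fold of the 10 genes was 0.26, and that of all genes 0.03. Folds are differences of log2(mean CPM + 5) and understate changes of genes with low levels.

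Klra4 averaged 891 CPM in Ptgs-/- against 531 CPM in Ptgs+/+ NK cells, a log2 fold of 0.74. Its summed UMIs, scaled to depth, gave a ratio of 1.8 (exact 95% counting interval 1.51 to 2.17). It was seen in 43.1% (38.8 to 47.6) of Ptgs-/- and 29.2% (21.7 to 37.6) of Ptgs+/+ NK cells. Klrd1 had the lowest fold, -0.36, with 920 UMIs in Ptgs-/- and 281 UMIs in Ptgs+/+ NK cells (ratio 0.79, 0.691 to 0.907). Ncr1 at 0.01 and Klrc1 at 0.00 were level. The others stood at 0.36 for Klrb1c, 0.32 for Klrc2, 0.28 for Klra8, 0.28 for Klra7, 0.24 for Klre1 and -0.17 for Klrk1.

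Klra7 showed a gap between share and mean. It was seen in 40.8% of Ptgs-/- and 24.8% of Ptgs+/+ NK cells, while the UMI ratio was 1.08 (0.867 to 1.35). After each cell was thinned to 2000 UMIs, which kept 273 Ptgs-/- and 64 Ptgs+/+ NK cells, the shares were 39.6% and 31.2%. At that depth the median log2 fold of the 10 genes was -0.12, Klra4 was the one gene past 1.5-fold at 1.01, and the fold of Klrc2 was 0.54. When log2 values were averaged over cells before the groups were compared, which weighs the number of positive cells, 6 of the 10 genes passed 1.5-fold upward, none downward, and the median was 0.75.

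Of 20 other receptors of the NK gene complex, 10 were seen in at least 10% of NK cells, 4 of them were higher in Ptgs-/- tumours and none was lower, with a median of 0.31. These were the inhibitory Ly49A gene Klra1 (109 CPM in Ptgs-/- against 50 CPM in Ptgs+/+), the cadherin receptor gene Klrg1 (105 against 60.8 CPM), the KLRE1 partner Klri2 (381 against 245 CPM) and Clec2d (239 against 150 CPM), a ligand of NKR-P1 receptors. Klra1 and Klrg1 passed the filter of 10% of cells only through Ptgs-/- NK cells, where they were high. Of the 4 adaptors Hcst averaged 723 CPM in Ptgs-/- and 464 CPM in Ptgs+/+ NK cells, and Cd247 136 and 85.7 CPM, both beyond 1.5-fold. Tyrobp averaged 1560 and 2020 CPM, and Fcer1g 1390 and 1710 CPM, both within it.

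Of 16 signalling genes 14 were seen in enough cells. Ptpn6, the gene of the phosphatase SHP-1 that ITIMs recruit, was seen in 19.8% of Ptgs-/- and 9.49% of Ptgs+/+ NK cells. Ptpn11, the gene of the related SHP-2, was seen in 14.5% and 7.30%. The means of both were past 1.5-fold, from 14 and 10 UMIs in the Ptgs+/+ cells, but both genes passed the filter of 10% of cells only through Ptgs-/- NK cells, which favoured this direction. Lcp2, the SLP-76 scaffold, was the 1 gene of the list that was lower, at 110 against 176 CPM. None of the 5 other surface receptors that were seen in enough cells passed 1.5-fold. Of the 6 ligand genes seen in enough NK cells Clec2d alone passed it, and H2-T23, which codes for Qa-1, averaged 331 CPM in Ptgs-/- and 273 CPM in Ptgs+/+ NK cells.

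The NK-depleted library shows what remained of this RNA after antibody treatment. In the whole library Ncr1, Klra7 and Klra8 had 0 UMIs in 3879 cells, against 446, 508 and 970 UMIs in the 4677 cells of undepleted Ptgs-/- tumours. Klrb1c had 15 UMIs against 903, Klra4 8 against 1107, Klre1 12 against 1094, Klrc1 11 against 478 and Klrc2 4 against 720. Klrk1 (833 against 1577 UMIs) and Klrd1 (679 against 1636 UMIs) were kept in part, and 561 of the 679 Klrd1 UMIs lay in the cDC2 class.

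In the 45 cells labelled NK, set against the 510 NK cells of undepleted Ptgs-/- tumours, all 10 receptors were lower by 1.5-fold or more. Among the 4898 genes seen in enough of these cells 22.6% were higher and 22.1% lower, relative to their median, which had shifted by 0.11. The label of these cells is in doubt (above), so this compares cells the authors named alike and not NK cells before and after treatment. With no UMI in the 45 cells, Ncr1 was at least 16.5-fold lower, Klra8 at least 35-fold, Klra4 at least 40.7-fold and Klra7 at least 18.1-fold, from a floor of 3 counts over the group. The UMI ratios were 0.0206 (0.0025 to 0.0748) for Klrb1c, 0.0181 (0.00219 to 0.0655) for Klrd1, 0.0172 (0.00209 to 0.0625) for Klre1 and 0.0131 (0.00033 to 0.073) for Klrc2. Klrk1 was kept most, at a log2 fold of -2.99 (15 UMIs, ratio 0.15, 0.0835 to 0.249), followed by Klrc1 at -3.18 (7 UMIs, ratio 0.136, 0.0545 to 0.284). The median of the 10 folds was -5.35 with the genes at 0 UMIs set to their bound.

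Other receptors of the NK gene complex followed, with 8 of 10 lower and 1 higher in the 45 cells. Klra9, Klri2, Klra3 and Klrb1a had no UMI there, against 400, 381, 226 and 103 CPM in undepleted Ptgs-/- NK cells. Such genes could pass the filter of 10% of cells only through undepleted NK cells, which favoured this direction. Of the adaptors Fcer1g averaged 53.2 CPM in the 45 cells and 1390 CPM in undepleted cells, and Tyrobp 149 and 1560 CPM. Cd247, which T cells also use, was the adaptor that was higher, at 225 and 136 CPM. Among signalling genes 4 were higher and 5 lower of 14, with Plcg1, the phospholipase of T cell receptor signalling, at 92.5 CPM in the 45 cells and 5.52 CPM in undepleted NK cells. Of 7 other surface receptors 4 were lower and 1 higher, and Cd244 averaged 10.9 and 271 CPM. None of the 6 ligand genes passed 1.5-fold.

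**Figure D3:**
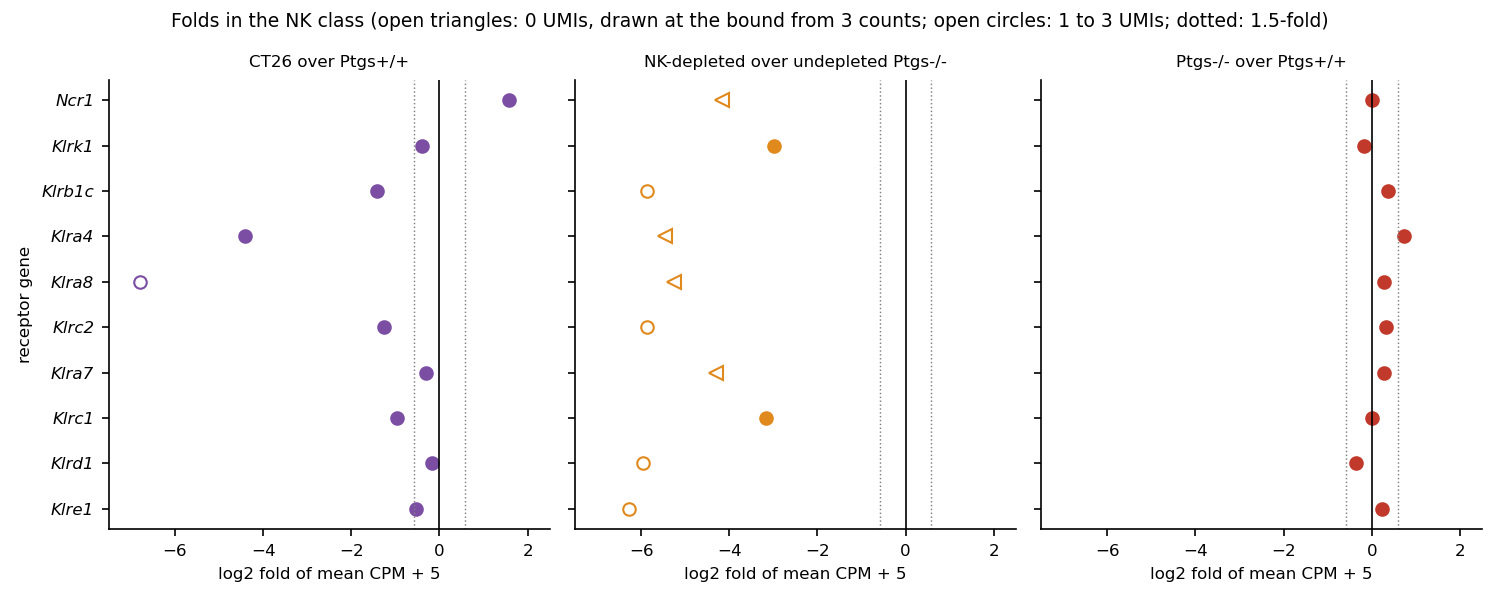
Log2 folds of the 10 receptor genes in the NK class for CT26 over Ptgs+/+, NK-depleted over undepleted Ptgs-/-, and Ptgs-/- over Ptgs+/+ tumours, on the log2(mean CPM + 5) scale. Open triangles are genes with 0 UMIs in the depleted cells, drawn at their bound, open circles rest on 1 to 3 UMIs, and dotted lines mark 1.5-fold. Ptgs-/- over Ptgs+/+ folds lie between -0.36 and 0.74. CT26 over Ptgs+/+ reaches -6.79, and NK-depleted over undepleted Ptgs-/- reaches -6.27.

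CT26 NK cells of BALB/c mice were set beside Ptgs+/+ NK cells of C57BL/6 mice. Of the 10 receptors 1 was higher, 5 were lower and 4 lay within 1.5-fold, with a median log2 fold of -0.75. Among 3875 genes 18.2% were higher and 26.8% lower, with a median of -0.09. Ncr1 was the gene that was higher, at 1070 CPM in CT26 and 357 CPM in Ptgs+/+ NK cells (log2 fold 1.57, UMI ratio 2.68, 2.23 to 3.26). It was seen in 80.8% (78.5 to 82.8) of CT26 and 48.9% (40.3 to 57.6) of Ptgs+/+ NK cells.

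The lower genes were the activating Ly49 receptors, NK1.1 and the NKG2 chains. Klra8 had 3 UMIs in CT26 and 171 in Ptgs+/+ NK cells although CT26 gave 1346 cells against 137 (UMI ratio 0.00157, 0.000321 to 0.00467). Klra4 had a log2 fold of -4.41 (62 UMIs in CT26 against 136 in Ptgs+/+, ratio 0.0408, 0.0297 to 0.0555). Klrb1c stood at -1.41, Klrc2 at -1.25 and Klrc1 at -0.97. Klre1 at -0.52, Klrk1 at -0.39, Klra7 at -0.30 and Klrd1 at -0.16 were within 1.5-fold. How far BALB/c sequences that differ from the C57BL/6 reference lower these counts was not tested.

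Other genes of the complex moved both ways between the hosts: 5 of 9 were higher in CT26 and 2 lower, with a median of 0.71. The inhibitory Klra3 (Ly49C) averaged 521 CPM in CT26 and 190 CPM in Ptgs+/+ NK cells, and Klrb1f 266 and 119 CPM. Klrb1b averaged 19.9 and 342 CPM and Klra9 65 and 340 CPM. Klri1, the inhibitory partner of KLRE1, had 98 UMIs in 6.91% of CT26 NK cells and none in 137 Ptgs+/+ NK cells, which allows a share of up to 2.19%. H60b, a ligand gene of NKG2D, had 99 UMIs in 6.84% of CT26 NK cells and none in Ptgs+/+ NK cells. The 4 adaptors lay within 1.5-fold. H2-D1, an MHC class I gene and ligand of Ly49 receptors, averaged 3910 CPM in CT26 and 1990 CPM in Ptgs+/+ NK cells. Ptpn6 averaged 137 and 56.3 CPM. Of 13 signalling genes 2 were higher and 3 lower, of 6 other surface receptors 1 was higher (Slamf7, 184 and 108 CPM), and of 6 ligand genes 2 were higher and 2 lower.

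An NK cell expresses only some Ly49 genes, so the number with a UMI was counted in each cell for 9 of them (Klra1, Klra3 to Klra10), of which Klra6 was not a column of the CT26 matrix. At 2000 UMIs per cell 39.4% (36 to 42.9) of CT26, 13.6% (9.73 to 18.2) of Ptgs-/- and 29.7% (18.9 to 42.4) of Ptgs+/+ NK cells had no Ly49 gene. Cells with 3 made up 4.16%, 23.8% and 23.4% in that order. Unthinned, cells with none were 37.1%, 12% and 27%. Cells with 3 Ly49 genes were thus rarer in CT26 than in either 5555 library, beyond counting error. The genes counted include those of Ly49D and Ly49H, which BALB/c mice lack, and the part of strain in this was not tested. The interval of cells with none in Ptgs-/- lay just below that in Ptgs+/+ tumours. Of the 10 receptors described here, unthinned, a median of 4 were seen per cell in CT26, 6 in Ptgs-/- and 5 in Ptgs+/+ NK cells. Cells with none of them were 0.669%, 2.35% and 4.38%. At 2000 UMIs per cell the medians were 4, 6 and 6, and 0.252%, 2.2% and 7.81% of cells had none, so Ptgs-/- and Ptgs+/+ medians did not differ.

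**Figure D4:**
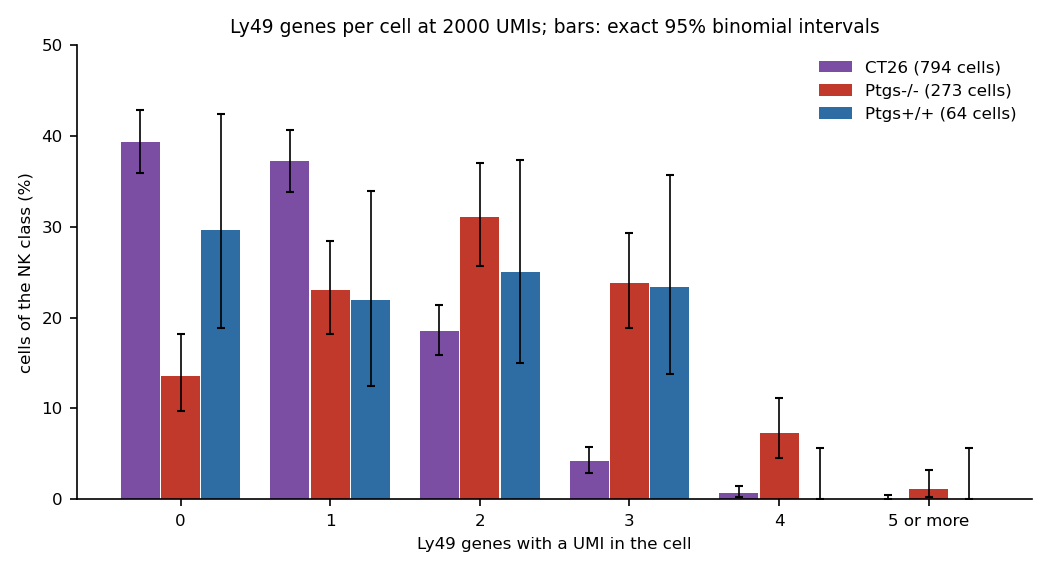
Share of NK cells, in %, by the number of Ly49 genes with a UMI after thinning to 2000 UMIs per cell, for CT26 (794 cells), Ptgs-/- (273 cells) and Ptgs+/+ tumours (64 cells), with exact 95% binomial intervals as bars. CT26 cells lie mostly at 0 and 1, Ptgs-/- cells peak at 2, and Ptgs+/+ cells are spread over 0 to 3.

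Some receptors were seen together in the same cells. In Ptgs-/- NK cells Klra4 was seen in 52.6% (45.9 to 59.2) of Klra8-positive and 35.3% (29.6 to 41.2) of Klra8-negative cells. In Ptgs+/+ NK cells the shares were 45.1% (31.1 to 59.7) and 19.8% (12 to 29.8). At 2000 UMIs per cell they were 53% (43.5 to 62.3) and 34.6% (27.2 to 42.6) in Ptgs-/- NK cells, and 31.8% (13.9 to 54.9) and 19% (8.6 to 34.1) in Ptgs+/+ NK cells. The intervals stayed apart in Ptgs-/- and overlapped in Ptgs+/+ tumours once depth was matched. Klrc1 and Klrc2 shared cells in CT26, where Klrc1 was seen in 54% (48.9 to 59) of Klrc2-positive and 19.9% (17.4 to 22.5) of Klrc2-negative NK cells. In Ptgs-/- NK cells these shares were 34.4% (29.2 to 39.8) and 42.2% (35.1 to 49.7), and in Ptgs+/+ NK cells 43.7% (31.9 to 56) and 33.3% (22.2 to 46). At 2000 UMIs per cell the CT26 shares were 45.1% (38.1 to 52.2) and 19.5% (16.4 to 22.9). The 3′ end of Klrc1 matches sequence of Klrc2 (above), and the part of this in their overlap was not tested. Cells with more UMIs show more genes of any kind.

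T cells held RNA of NKG2D and, in fewer cells, of CD94. Klrk1 was seen in 21.9% of 767 T cells in CT26, 7.34% of 109 in NK-depleted Ptgs-/-, 16.4% of 214 in Ptgs-/- and 16.7% of 66 in Ptgs+/+ tumours. Its means were 176, 43.8, 141 and 201 CPM. Klrd1 was seen in 7.43%, 1.83%, 10.3% and 7.58% of T cells in the same order, and none of the other 8 receptors passed 5.14% in any library. NK-depleted T cells stood lowest for both genes, at a UMI ratio over undepleted Ptgs-/- T cells of 0.398 (0.206 to 0.718) for Klrk1 and 0.247 (0.0631 to 0.703) for Klrd1. Cell type markers of this class moved too. γδ markers summed to 356 CPM in NK-depleted and 625 CPM in undepleted Ptgs-/- T cells, with 1 and 3 of 4 in at least 10% of cells. NK markers summed to 466 and 1480 CPM, with 1 and 3 of 10 in at least 10% of cells. Markers of group 2 innate lymphoid cells summed to 3060 and 2020 CPM, with 4 of 5 in at least 10% of cells in both. Their part in the lower Klrk1 and Klrd1 was not tested. Between Ptgs-/- and Ptgs+/+ T cells the log2 fold was -0.50 for Klrk1 and -0.05 for Klrd1, with 63 UMIs against 21 and 29 UMIs against 6. At 2000 UMIs per cell, with 119 Ptgs-/- and 17 Ptgs+/+ T cells left, both turned positive, so no direction is read from them.

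The other receptors in T cells were too few to compare. Ncr1 (3 UMIs), Klrb1c (7), Klra8 (12) and Klra4 (15) had UMIs in at most 1.87% of Ptgs-/- T cells and none in the depleted or the Ptgs+/+ T cells. Klra7 had 2 UMIs in Ptgs-/- and 1 in Ptgs+/+ T cells. Klrc1 had 15 and 1 UMIs, Klrc2 20 and 2, and Klre1 12 and 4. Of the 39 UMIs that Ncr1, Klrb1c, Klra8, Klra4 and Klra7 had in Ptgs-/- T cells, 36 lay in 4 cells that held at least 2 of these genes, and all 4 also had UMIs of Gzma, Nkg7 or Prf1.

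T cell subsets, chosen after the values were seen, differed in which receptor they held. In CT26 the 253 T cells with a UMI of the γδ genes Trdc or Tcrg-C1 had Klrk1 in 42.3% (36.1 to 48.6) and Klrd1 in 4.74% (2.47 to 8.14). The 59 T cells with a Cd8a or Cd8b1 UMI had both Klrk1 and Klrd1 in 27.1% (16.4 to 40.3), Klrc2 in 18.6% and Klrc1 in 15.3%. The 116 T cells with a Cd4 UMI had Klrk1 in 8.62% (4.21 to 15.3). The 5555 libraries had fewer such cells: in Ptgs-/- tumours Klrk1 was seen in 28.9% of 38 γδ, 35% of 20 Cd8 and 6.38% of 47 Cd4 cells, and Klrd1 in 50% (27.2 to 72.8) of the Cd8 cells. In CT26 the interval for cells with a γδ UMI lay above that for Cd4 cells, and the Ptgs-/- subsets were too small to rank. The γδ marker list, which holds both genes, was seen in 36.9% of CT26 NK cells (255 CPM) and 34.4% of CT26 T cells (1070 CPM). A single such UMI thus does not set γδ T cells apart from NK cells. The T class of each 5555 library also held group 2 innate lymphoid cell markers, 4 of 5 in at least 10% of cells.

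Outside lymphocytes CD94 RNA was found in dendritic cells, and most of all in the cDC2 class (conventional type 2 dendritic cells) of Ptgs+/+ tumours. Klrd1 averaged 81.7 CPM in CT26, 222 CPM in NK-depleted Ptgs-/-, 171 CPM in Ptgs-/- and 715 CPM in Ptgs+/+ cDC2s, from 242, 561, 527 and 1690 UMIs. It was seen in 26.6% (22.7 to 30.8), 50% (45 to 55), 38% (33.9 to 42.4) and 77.3% (72.8 to 81.4) of them, and at 2000 UMIs per cell in 11.7%, 25.1%, 21.6% and 58.5%. Ptgs+/+ cDC2s stood apart from the other libraries. The Ptgs-/- over Ptgs+/+ log2 fold was -2.03, with a UMI ratio of 0.189 (0.171 to 0.209).

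Klrd1 and Klrk1 were each seen in at least 10% of cDC2s in both groups and were lower in Ptgs-/- tumours, where 9.46% of 6996 genes were higher and 7.88% lower. Klre1 reached that share only in Ptgs+/+ cDC2s, where it was high, so its direction was favoured by the filter. This class was chosen after its values were seen. The NKG2 partners were near 0: Klrc1 averaged 0.719 CPM in Ptgs-/- and 9.04 CPM in Ptgs+/+ cDC2s, and Klrc2 2.34 and 9.09 CPM. Klre1 averaged 7.62 and 16.7 CPM. NK cell markers summed to 141 CPM in Ptgs-/- and 50.5 CPM in Ptgs+/+ cDC2s. Without cells that had a UMI of another NK receptor Klrd1 averaged 167 CPM (37.3% of 491 cells) in Ptgs-/- and 668 CPM (73.5% of 317 cells) in Ptgs+/+ cDC2s. The part of NK cell RNA in the Klrd1 difference was not tested.

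Other cell type genes moved with Klrd1 in this class. C1qa was seen in 32.1% of Ptgs-/- and 11.1% of Ptgs+/+ cDC2s, Adgre1 in 30.4% and 15.6%, and Flt3, the growth factor receptor of dendritic cells, in 21.6% and 41.4%. All 5 macrophage markers were seen in at least 10% of cells in both groups, and they summed to 1460 CPM in Ptgs-/- and 780 CPM in Ptgs+/+ cDC2s. Dendritic cell markers summed to 109 and 171 CPM. Among cells without a C1q or Adgre1 UMI Klrd1 averaged 263 CPM in Ptgs-/- and 838 CPM in Ptgs+/+ cDC2s, a log2 fold of -1.66. Among cells with a Flt3 UMI it averaged 370 and 851 CPM, a log2 fold of -1.19. The difference was smaller in these subsets and kept its direction, and the part of the make-up of the class in it was not tested.

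Whether other dendritic cells held less Klrd1 than cDC2s differed by library. In CT26 they did not all: it averaged 130 CPM in the actDC class and 118 CPM in the plasmacytoid class, both above the 81.7 CPM of cDC2s. The cDC3 class of the 5555 libraries averaged 149 CPM in NK-depleted Ptgs-/-, 123 CPM in Ptgs-/- and 122 CPM in Ptgs+/+ tumours. In Ptgs-/- tumours the cDC3 mean was below that of cDC2s, but its share of cells with a UMI was 39.7%, against 38% of cDC2s, and 22.8% against 21.6% at 2000 UMIs per cell, so these classes were not separated. The cDC1 class averaged 17.2 CPM in CT26, 34.6 CPM in NK-depleted Ptgs-/-, 25.9 CPM in Ptgs-/- and 113 CPM in Ptgs+/+ tumours, the last from 27 UMIs.

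NKG2D RNA was more widely spread. Klrk1 averaged 320 CPM in the actDC class of CT26 (71.4% of 112 cells). In the cDC3 class it averaged 220 CPM (53.3%) in NK-depleted Ptgs-/-, 122 CPM (31%) in Ptgs-/- and 124 CPM (27.8%) in Ptgs+/+ tumours. In cDC2s it averaged 163, 116, 75.9 and 134 CPM in the order CT26, NK-depleted Ptgs-/-, Ptgs-/- and Ptgs+/+. In cDC1s it averaged 104, 135, 88.3 and 229 CPM in that order, with a Ptgs-/- over Ptgs+/+ log2 fold of -1.33 (23 UMIs against 45, ratio 0.411, 0.237 to 0.693). Across the 6770 genes seen in enough cDC1s, 1750 were higher and 1335 lower by 1.5-fold or more between these 33 Ptgs-/- and 38 Ptgs+/+ cells. Of 4 dendritic cell markers 3 were higher, among them the cDC1 gene Xcr1 at 426 CPM in Ptgs-/- and 53.2 CPM in Ptgs+/+ cDC1s, and their part in the Klrk1 value was not tested. Klrk1 was lowest in Ptgs-/- tumours in both classes of conventional dendritic cells.

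Monocyte classes had higher Klrk1 means in Ptgs-/- than in Ptgs+/+ tumours. In the class deposited as Monocytes 1 it averaged 24.5 CPM in NK-depleted Ptgs-/-, 36.8 CPM in Ptgs-/- and 15.2 CPM in Ptgs+/+ tumours, seen in 10.6%, 16% and 6.19% of cells. The Ptgs-/- over Ptgs+/+ log2 fold was 1.05 (ratio 2.1, 1.32 to 3.53). Klrk1 reached 10% of cells only in the Ptgs-/- group of this pair, where it was high, so the filter favoured this direction. Among 6312 genes seen in enough of these cells 517 were higher and 483 lower, and 3 of 5 macrophage markers were higher. Their part in the Klrk1 value was not tested. In Monocytes 2 Klrk1 averaged 31.1 CPM in Ptgs-/- and 19.7 CPM in Ptgs+/+ tumours, and in the Mono Mac class 31.6 and 23.9 CPM, both within 1.5-fold. The macrophage classes differed in direction. Klrk1 averaged 6.25 CPM in Ptgs-/- and 12 CPM in Ptgs+/+ tumours in TAM 1, and 3.58 and 4.31 CPM in TAM 3. It averaged 14.6 and 11.5 CPM in TAM 2, and 15.1 and 13.9 CPM in TAM 4. In CT26 the class deposited as Monocyte 2 held 212 CPM in 45.8% of 821 cells and the plasmacytoid class 201 CPM in 51% of 204 cells. Ncr1 in that Monocyte 2 class was at 4.17 CPM, and B cells of the 5555 libraries had no Klrk1 UMI (0 of 36, 44 and 23 cells in NK-depleted Ptgs-/-, Ptgs-/- and Ptgs+/+).

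**Figure D5:**
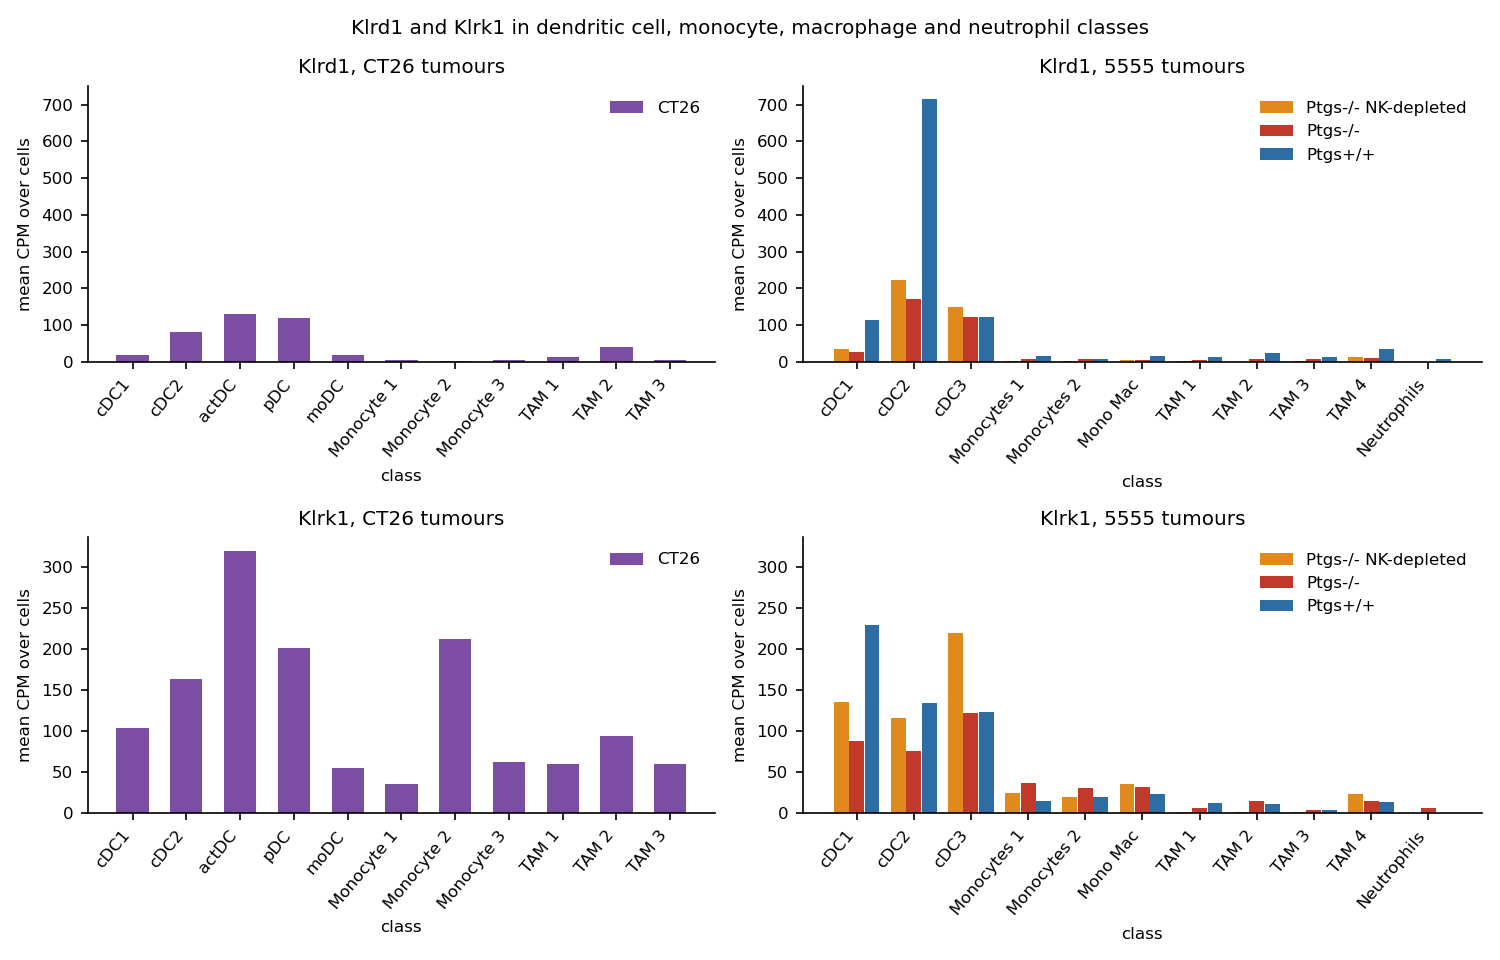
Mean level in CPM over cells (bars from 0) of Klrd1 (top) and Klrk1 (bottom) in dendritic cell, monocyte, macrophage and neutrophil classes of CT26 tumours (left) and of the 3 kinds of 5555 tumours (right). Klrd1 peaks at 715 CPM in Ptgs+/+ cDC2s, and Klrk1 at 320 CPM in the actDC class of CT26.

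NK cell RNA outside the NK class was tracked by 5 of the genes (Ncr1, Klrb1c, Klra8, Klra4 and Klra7). The NK class held 80.9% of their UMIs in CT26, 8.7% (2 of 23 UMIs) in NK-depleted Ptgs-/-, 90.4% in Ptgs-/- and 87.3% in Ptgs+/+ tumours. In CT26 the class deposited as Proliferating cells had 1 or more of the 5 genes in 54.5% of 123 cells and averaged 406 CPM of Ncr1. The TAM 2 class of CT26 had them in 12.1% of 1113 cells, and 62 cells held 2 or more of the genes at a median of 6842 UMIs, against 7771 UMIs in the whole class. Of these 62 cells 100% also had UMIs of Gzma, Nkg7 or Prf1. Over all monocytes and macrophages of CT26, cells with 2 or more of the genes had a median of 6969 UMIs, against 4359. No doublet caller was run, and whether such cells are doublets was not tested.

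Over 55 pairs of class and library with at least 30 cells, the genes whose level was most like the mean of the 10 receptors were Eomes (Pearson r = 0.94), Styk1, Samd3, Cd160, Xcl1, Ifitm10, Prf1, Klra9, Klra3 and Ncald (0.89), of 9626 genes compared. Each receptor's own r to that mean, of which it is a part, was lowest for Klrk1 (0.72), Klra8 (0.77) and Klrd1 (0.79) and highest for Klrc2 (0.95). The points share libraries and depth, so these are descriptions.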

How the data were processed

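Live CD45+ cells of 4 tumour libraries were used, and the library of cultured dendritic cells was not used here. The authors deposited 1 matrix for the 3 libraries of 5555 tumours and 1 for CT26, with log2 values per cell and gene. Cell Ranger 3.0.2, mm10 and Partek are named in the submitters' processing notes. The transformation is not given in the sources used here and was read from the values: undone as log2(CPM + 1), each cell added up to one common total within 0.00245%. At least 99.46% of the values above 0 in every cell were whole multiples of 1 UMI (tolerance 0.1 UMI plus 0.01%), so UMIs could be recovered, and none of the 10 receptor genes held parts of a UMI. Depth and class sizes are given in the results.

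Class and library came from the authors' deposited text labels, matched on the barcode. In the 5555 matrix of 11872 cells, 36 cells lacked a label and 18 cells shared 9 barcodes; both were left out, and 11818 were used. The CT26 and 5555 matrices shared 23 barcodes, which were kept. No cells were clustered again, no doublet caller was run and free RNA was not subtracted.

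With 1 library per group no test was possible, p-values are not given, and the samples show no biological spread. Levels are means of CPM over cells, and folds were taken on the log2(mean CPM + 5) scale, relative to the median of all genes in at least 10% of cells where that median passed 0.1, and were called by size at 1.5-fold. Intervals at 95% are exact Poisson (UMIs), conditional binomial (UMI ratios) and Clopper-Pearson (shares), and cover counting error only. The floor for a count of 0 was 3 counts. Folds were tested on simulated counts.

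The receptor genes, the 5 further lists and the marker lists were chosen with earlier results of these data known. All 10 receptors are named in every comparison. Of the further lists the 4 genes with the largest absolute fold among those in at least 10% of NK cells may be named, and genes with no UMI in 1 strain and UMIs in at least 5% of NK cells of the other. Gene models and sequences are from GENCODE vM21 on GRCm38. Python 3.11.15, numpy 2.4.6, scipy 1.17.1 and matplotlib 3.10.9 were used. Alternatives were pseudocounts of 1 and 20, log2 values averaged over cells, summed UMIs in place of means over cells, centring switched, cells with at least 500 genes, no cells of the top 5% by genes, no mixed cells, thinning to 2000 UMIs and, added after the data were seen, 1000 UMIs, and members in at least 5% or 10% of cells.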

Additional observations from a re-analysis of the deposited data

Results flagged for a closer look

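Klrk1, the NKG2D gene, differed in opposite directions between classes, and the differences between classes were not tested because each group is 1 library. In Ptgs-/- over Ptgs+/+ tumours its log2 fold was -1.33 in cDC1s (33 cells against 38) and 1.05 in the class deposited as Monocytes 1 (695 cells against 226). Between the cDC1s 1750 of 6770 genes were higher and 1335 lower by 1.5-fold or more, and 3 of 4 dendritic cell markers were higher in Ptgs-/- tumours. Between the cells of Monocytes 1, 517 of 6312 genes were higher and 483 lower, and 3 of 5 macrophage markers were higher in Ptgs-/- tumours. In that class Klrk1 reached 10% of cells only in Ptgs-/- tumours, where it was high, so the filter favoured its direction.

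In NK-depleted over undepleted Ptgs-/- tumours its log2 fold was -2.99 in the cells labelled NK (45 against 510) and 0.826 in the dendritic cell class deposited as cDC3 (45 against 58). Between these cDC3s 1221 of 5864 genes were higher and 982 lower by 1.5-fold or more. Both macrophage markers seen in at least 10% of the cDC3s were lower. The 45 cells labelled NK lacked the defining NK markers, as described above.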

How the results depend on the processing

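No paired analysis was possible because each group is 1 library. In NK cells the directions of the medians past 1.5-fold held under all 12 alternatives for NK-depleted over undepleted Ptgs-/- and for CT26 over Ptgs+/+, but the CT26 median was -0.52 at 1000 UMIs per cell and no longer past 1.5-fold. The Ptgs-/- over Ptgs+/+ median became 0.75 with log2 values averaged over cells first (mean log2 values), past 1.5-fold. In T cells the Ptgs-/- over Ptgs+/+ median of 1.13, which rests on genes with few UMIs, was 0.54 at a pseudocount of 20, -0.14 as mean log2 values, -0.046 over receptors in at least 5% of cells and -0.27 over those in at least 10%. With genes at 0 UMIs at their bound it was -0.07. As mean log2 values Ncr1 turned to -0.18, Klrb1c to -0.13, Klra8 to -0.12, Klra4 to -0.11, Klrc1 to -0.14 and Klrc2 to -0.094. At 2000 UMIs per T cell, with 17 Ptgs+/+ cells left, Klra7 turned to 1.60, Klrk1 to 0.92, Klrd1 to 3.41 and Klre1 to 2.96. The NK-depleted median in T cells, -2.16, was -0.35 as mean log2 values. The cause was not tested. Klrd1 in cDC2s and Klrk1 in cDC1s kept their direction and stayed past 1.5-fold under 13 alternatives each, added after the data were seen. Klrk1 in Monocytes 1 did so under 10, and was 0.51 as mean log2 values. The 64 to 137 Ptgs+/+ NK cells and the 45 depleted cells limit what can be seen.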

Other observations

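Over 44 pairs of non-lymphoid class and library, chosen after the values were seen, Klrk1 was most like immunoproteasome genes: Psmb8 (Pearson r = 0.89), Psmb9 (0.88) and the proteasome activator gene Psme1 (0.86). Klrd1 was most like H2-Oa (0.89), which codes for a chain of the MHC class II chaperone H2-O. The points share libraries and depth and differ in cell type, so these are descriptions.

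Klri1, the inhibitory KLRE1 partner, had 2 UMIs in the NK class of Ptgs-/- and 0 in that of Ptgs+/+ tumours, while cDC2s held 17 Klri1 UMIs in CT26, 6 in Ptgs-/- and 16 in Ptgs+/+ tumours. H60b, an NKG2D ligand gene, had 68 UMIs in 13.2% of CT26 cDC2s, against 1 UMI in Ptgs-/- and 0 UMIs in Ptgs+/+ cDC2s.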
